A study of Schmidtea mediterranea with 24 samples.

Results

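Genes of the BMP system and its antagonists, which pattern the dorsal-ventral axis, were followed in the planarian *Schmidtea mediterranea* as 5 transcripts of the 82669 in the count table. They were taken by their identifiers: *BMP4* (SmedASXL_010389), *noggin-1* (SmedASXL_010770), *noggin-7* (SmedASXL_008242), *tolloid* (SmedASXL_014871) and *smad23* (SmedASXL_009874). The name *smad23* stands in the count table. The other 4 names come from the study's list of patterning genes, which was drawn up from differences in these same libraries. A difference between *yki(RNAi)* and *control(RNAi)* is therefore not independent evidence for those 4 genes, while *smad23* is not on that list.

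RNA was measured in 24 libraries of the clonal asexual strain CIW4, as 3 biological replicates (A, B and C) in each of 8 groups. The groups are *yki(RNAi)* intact animals, *control(RNAi)* intact animals, *yki(RNAi)* tails and *control(RNAi)* tails, the tails sampled 6, 12 or 24 hours after amputation (hpa). Animals of every group had 3 feedings of double-stranded RNA, against *yki* or, for the control, against GFP, which planarians lack. Every group, controls included, was irradiated with 60 Gy 15 days after feeding, a treatment used to remove dividing stem cells, and 24 hours later animals were collected intact or amputated. A library pooled 15 tails or more than 8 intact animals, so it averages over animals and over all cell types. Intact animals also hold head, trunk and pharynx, and they were collected at the hour when the tails were only cut. Differences between tails and intact animals can therefore not be told apart from differences of body region or of time after irradiation. In such bulk samples fewer cells of a type and less RNA per cell cannot be told apart either.

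Library totals ran between 11021767 and 23601139 counts. The transcript of *yki*, the Hippo pathway co-activator that was targeted, had 12.3 to 18.9 CPM in the 12 *yki(RNAi)* libraries and 86.4 to 120.9 CPM in the 12 *control(RNAi)* libraries. CPM is the count of a transcript relative to the library total, here after TMM scaling, which adjusts library sizes by a trimmed mean of ratios. Levels were not compared between genes, because transcript length was not taken into account. Calls required a Benjamini-Hochberg adjusted p under 0.05 over all transcripts tested in edgeR, and a fold change of at least 1.2 or under 0.83.

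BMP proteins are secreted ligands, and across animals with bilateral symmetry a graded BMP signal tells cells where they lie between back and belly. In planarians *bmp4* is transcribed along the dorsal midline, much of it in muscle cells, and its loss turns dorsal tissue ventral. Noggin proteins bind BMP ligands outside the cell and keep them from their receptors. Tolloid is a secreted metalloprotease that, in flies and vertebrates, frees BMP by cutting the chordin type of antagonist. SMAD2/3 proteins carry the activin and TGF-beta branch of the signal into the nucleus, in parallel to the SMADs that answer BMP.

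At 12 hpa the ligand and both *noggin* genes differed between *yki(RNAi)* and *control(RNAi)* tails, but not in the same direction. *BMP4* and *noggin-1* were 1.86-fold and 1.72-fold higher in *yki(RNAi)* than in *control(RNAi)* tails of that hour. *noggin-7* was at 0.59 of the *control(RNAi)* level. *tolloid* was at 1.12 times its *control(RNAi)* level, under the fold minimum, and *smad23* was not called. So 2 of the 5 transcripts were called higher and 1 lower, in a comparison where 10.9% of 28391 tested transcripts were called higher and 11.2% lower. The called transcripts are all on the study's list of patterning genes, so their count is not independent of how the genes were chosen. The median log2 fold change was 0.16 over the 5 and 0.01 over all tested. The plot of levels by library shows all 24 values of each transcript.

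**Figure D1:**
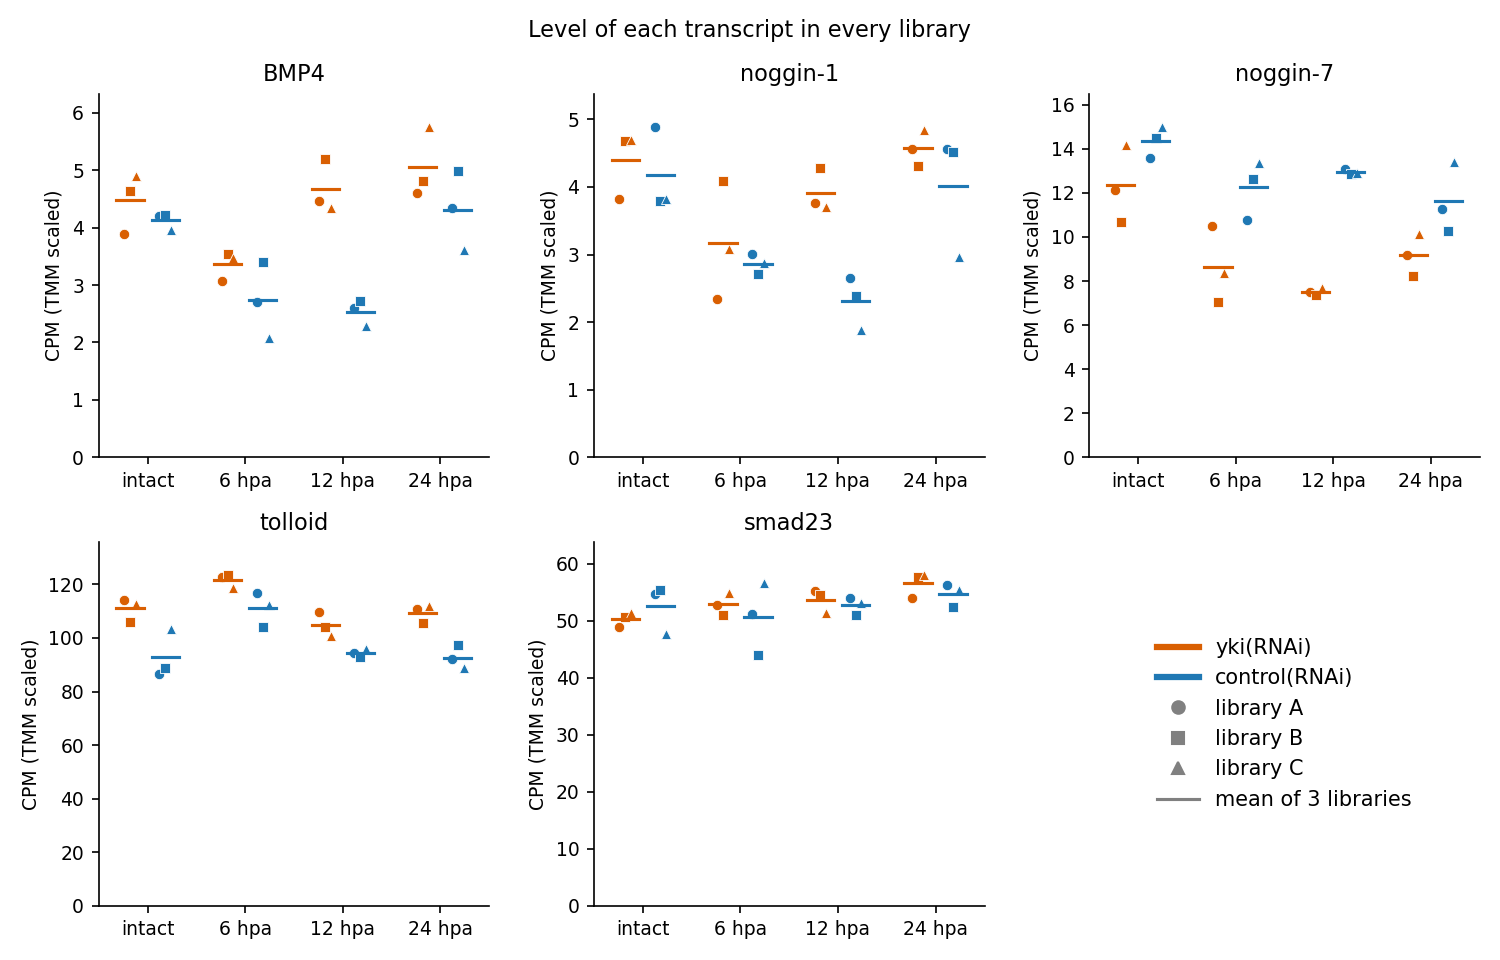
Level of each of the 5 transcripts in CPM (vertical axes, each from 0) in intact animals and in tails at 6, 12 and 24 hpa, with 1 point per library and a bar at the mean of 3. At 12 hpa the *yki(RNAi)* points of *BMP4* (4.35 to 5.19 CPM) and *noggin-1* (3.70 to 4.28 CPM) lie above all *control(RNAi)* points, and those of *noggin-7* (7.38 to 7.69 CPM) below them.

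*BMP4*, the ligand, was measured with 40 to 126 counts in a library. At 12 hpa it had 4.47, 5.19 and 4.35 CPM in *yki(RNAi)* tails A, B and C, against 2.60, 2.72 and 2.28 CPM in *control(RNAi)* tails. The 3 libraries after *yki(RNAi)* were all higher than the 3 after *control(RNAi)*. In edgeR the log2 fold change was 0.90 (SE 0.14) with an adjusted p of 0.000128, and the call held in 13 of 13 alternatives, with log2 fold changes from 0.82 to 0.94 and adjusted p from 4.91e-07 to 0.0028. At the other states the groups overlapped. At 6 hpa *BMP4* had 3.06, 3.55 and 3.48 CPM in *yki(RNAi)* tails and 2.71, 3.41 and 2.09 CPM in *control(RNAi)* tails (log2 fold change 0.31, SE 0.20). At 24 hpa it had 4.61, 4.82 and 5.76 CPM in *yki(RNAi)* tails and 4.35, 4.98 and 3.62 CPM in *control(RNAi)* tails (0.24, SE 0.16). *yki(RNAi)* intact animals had 3.89, 4.64 and 4.91 CPM, and *control(RNAi)* intact animals 4.21, 4.22 and 3.96 CPM (0.13, SE 0.16). None of these 3 differences was called (adjusted p = 0.453, 0.505 and 0.724 from edgeR).

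Ordered by mean, *BMP4* was lowest in *control(RNAi)* tails at 12 hpa (2.53 ± 0.23 CPM, SD, n = 3), followed by *control(RNAi)* tails at 6 hpa (2.74 ± 0.66 CPM) and *yki(RNAi)* tails at 6 hpa (3.36 ± 0.26 CPM). These 3 groups did not overlap with the other 5, which ran from 4.13 ± 0.15 CPM in *control(RNAi)* intact animals to 5.07 ± 0.61 CPM in *yki(RNAi)* tails at 24 hpa. The gap was narrow, between 3.55 CPM in *yki(RNAi)* 6 hpa replicate B and 3.62 CPM in *control(RNAi)* 24 hpa replicate C. Within the upper 5 groups every neighbour in the order overlapped with the next. *yki(RNAi)* tails at 12 hpa, with a mean of 4.67 ± 0.46 CPM, were thus in the upper set and *control(RNAi)* tails of the same hour in the lower one.

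*noggin-1*, a gene with an antagonist's name, followed the ligand closely. At 12 hpa it had 3.77, 4.28 and 3.70 CPM in *yki(RNAi)* tails and 2.65, 2.38 and 1.89 CPM in *control(RNAi)* tails, again with no overlap. It gave 0.78 on the log2 scale in edgeR (SE 0.16, adjusted p = 0.0012), and the call held in 13 of 13 alternatives (adjusted p from 8.53e-05 to 0.0127). At 6 hpa the *yki(RNAi)* tails spread from 2.34 to 4.09 CPM around the *control(RNAi)* tails, which lay between 2.72 and 3.01 CPM. The highest *yki(RNAi)* tail was replicate B, and the log2 fold change was 0.18 (SE 0.21) with it and -0.07 without it, neither of them called. At 24 hpa *noggin-1* had 4.31 to 4.85 CPM in *yki(RNAi)* tails and 2.96 to 4.56 CPM in *control(RNAi)* tails, and in intact animals 3.82 to 4.70 CPM after *yki(RNAi)* and 3.79 to 4.89 CPM after *control(RNAi)*. Those groups overlapped and were not called (adjusted p = 0.652 and 0.807 from edgeR).

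Over the 24 libraries the log2 levels of *noggin-1* and *BMP4* had a Pearson correlation of 0.86, with groups and libraries shared between the 2 axes. For every 100 counts of *BMP4* there were 76.3 to 137.5 counts of *noggin-1* in a tail library and 89.8 to 116.3 in an intact one. Transcript length was not taken into account, so this ratio does not give the relative abundance of the 2 transcripts. At 12 hpa the ratio was 82.5 to 85.1 in *yki(RNAi)* tails and 82.7 to 101.8 in *control(RNAi)* tails, so it overlapped where both levels differed. The next correlations among the 5 transcripts were negative: -0.47 between *noggin-7* and *tolloid* and -0.36 between *BMP4* and *noggin-7*. The other 7 lay between -0.27 and 0.20.

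**Figure D2:**
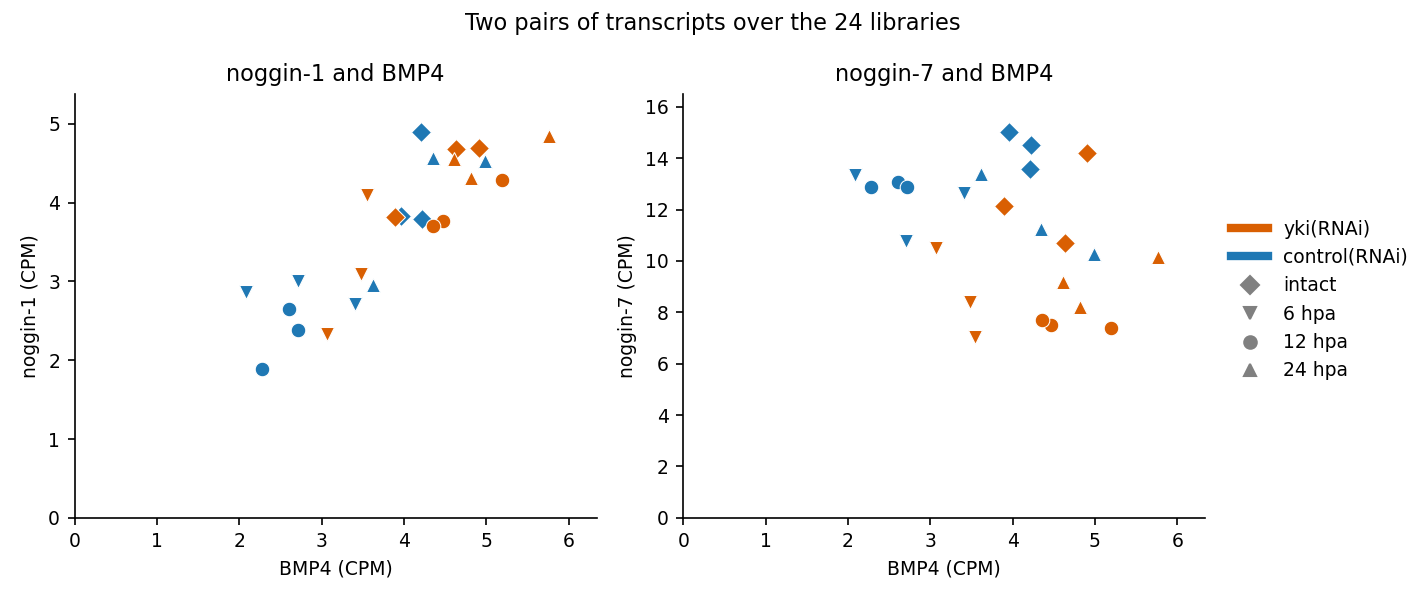
Level of *noggin-1* (left) and *noggin-7* (right) against that of *BMP4*, in CPM, with 1 point per library and all axes from 0. The *noggin-1* points lie along 1 line (Pearson r = 0.86), whereas the *yki(RNAi)* 12 hpa tails combine high *BMP4* (4.35 to 5.19 CPM) with low *noggin-7* (7.38 to 7.69 CPM).

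*noggin-7*, the other gene with an antagonist's name, went the opposite way. At 12 hpa it had 7.49, 7.38 and 7.69 CPM in *yki(RNAi)* tails and 13.1, 12.9 and 12.9 CPM in *control(RNAi)* tails. The SD within each group was 0.16 and 0.11 CPM (n = 3), and the groups were far apart. The difference was -0.77 on the log2 scale in edgeR (SE 0.08, adjusted p = 1.08e-06), with a range of -0.79 to -0.73 over 13 alternatives, each of which made the call. At 6 hpa it had 10.5, 7.05 and 8.38 CPM in *yki(RNAi)* tails and 10.8, 12.6 and 13.3 CPM in *control(RNAi)* tails. The groups did not overlap, although *yki(RNAi)* A and *control(RNAi)* A lay close together. The log2 fold change of -0.48 (SE 0.14) was not called in edgeR (adjusted p = 0.0786). It was called by DESeq2 (adjusted p = 0.0374), without the filter on low counts, with all 24 libraries in 1 fit and without *yki(RNAi)* replicate A, and over all 13 alternatives the adjusted p ran from 0.0139 to 0.252.

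At 24 hpa *noggin-7* had 9.17, 8.22 and 10.2 CPM in *yki(RNAi)* tails and 11.2, 10.3 and 13.4 CPM in *control(RNAi)* tails. The highest *yki(RNAi)* library lay just under the lowest *control(RNAi)* library, and the log2 fold change of -0.34 (SE 0.13) was not called (adjusted p = 0.196 from edgeR). In intact animals it had 12.1, 10.7 and 14.2 CPM after *yki(RNAi)* and 13.6, 14.5 and 15.0 CPM after *control(RNAi)*, which overlapped (-0.23, SE 0.12, adjusted p = 0.332 from edgeR). In the order of means the 3 groups of *yki(RNAi)* tails were the lowest, from 7.52 ± 0.16 CPM at 12 hpa to 9.18 ± 0.97 CPM at 24 hpa. The next group was *control(RNAi)* tails at 24 hpa (11.6 ± 1.6 CPM). It did not overlap with *yki(RNAi)* tails at 12 or 24 hpa, whereas *yki(RNAi)* replicate A at 6 hpa (10.5 CPM) lay above its lowest library (10.3 CPM). *control(RNAi)* intact animals were the highest, at 14.4 ± 0.73 CPM (all SD, n = 3).

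*tolloid*, the protease, was measured with 1006 to 2649 counts in a library and had small differences. Its levels after *yki(RNAi)* exceeded all those after *control(RNAi)* in each of the 4 states. No state was called, although *tolloid* is on the study's list of patterning genes. At 12 hpa the level was 109.6, 104.2 and 100.7 CPM in *yki(RNAi)* tails and 94.6, 92.8 and 95.9 CPM in *control(RNAi)* tails. The adjusted p of 0.0101 (edgeR) passed, but a log2 fold change of 0.16 (SE 0.04) is below the fold minimum. At 6 hpa it was 118.8 to 123.5 CPM in *yki(RNAi)* tails and 104.3 to 116.7 CPM in *control(RNAi)* tails (0.16, SE 0.07, adjusted p = 0.225). At 24 hpa it was 105.5 to 111.8 CPM in *yki(RNAi)* tails and 88.6 to 97.3 CPM in *control(RNAi)* tails (0.24, SE 0.06, adjusted p = 0.0508). This 1.18-fold difference is also below the fold minimum. Its adjusted p was 0.0471 by DESeq2 and 0.0335 in edgeR with all 24 libraries in 1 fit. Over 13 alternatives it ran from 0.0335 to 0.178, and none made the call. Intact animals had 106.0 to 114.3 CPM after *yki(RNAi)* and 86.4 to 103.5 CPM after *control(RNAi)* (0.25, SE 0.09, adjusted p = 0.16). Without *control(RNAi)* intact replicate C, the highest of its group, that difference was 0.32 and was called (adjusted p = 0.021). Over its 13 alternatives the adjusted p ran from 0.021 to 0.468.

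*smad23*, the intracellular effector, had the smallest span. Over all 24 libraries it ranged from 44.0 to 58.0 CPM, a 1.32-fold span, against 2.76-fold for *BMP4*, 2.60-fold for *noggin-1*, 2.13-fold for *noggin-7* and 1.43-fold for *tolloid*. Such spans also widen with counting noise at low counts, and *BMP4* had 40 to 126 and *noggin-1* 43 to 106 counts in a library. The part of this noise in the spans was not tested. At 12 hpa it had 55.3, 54.5 and 51.3 CPM in *yki(RNAi)* tails and 54.1, 51.0 and 53.1 CPM in *control(RNAi)* tails. Its log2 fold changes between *yki(RNAi)* and *control(RNAi)* were -0.06 (SE 0.09) in intact animals, 0.09 (SE 0.09) at 6 hpa, 0.04 (SE 0.05) at 12 hpa and 0.05 (SE 0.06) at 24 hpa. The groups overlapped at all 4 states, and in the order of the 8 group means each group overlapped with the next. It was measured with 638 to 1337 counts in a library.

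Away from 12 hpa, edgeR called 0 of the 5 transcripts between *yki(RNAi)* and *control(RNAi)*. In intact animals 1 transcript (*tolloid*) had an unadjusted p under 0.05 and DESeq2 called 0, where 1.68% of 25534 transcripts were called higher and 1.98% lower. At 6 hpa 2 (*noggin-7* and *tolloid*) had an unadjusted p under 0.05 and DESeq2 called 1, where 2.47% of 26893 were higher and 3.49% lower. At 24 hpa the same 2 had an unadjusted p under 0.05 and DESeq2 called 0, where 1.53% of 27649 were higher and 2.53% lower. These percentages are of edgeR calls. The share of all transcripts with an unadjusted p under 0.05 is not given here or below, so counts at that threshold have no background beside them. The share of all transcripts called was also highest at 12 hpa, where the biological coefficient of variation of the fit was 5.26%, against 10.8% to 13% at the other 3 states. The sign of the log2 fold change was shared by the 4 states for *BMP4*, *noggin-1*, *noggin-7* and *tolloid*, as the plot of these fold changes shows.

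**Figure D3:**
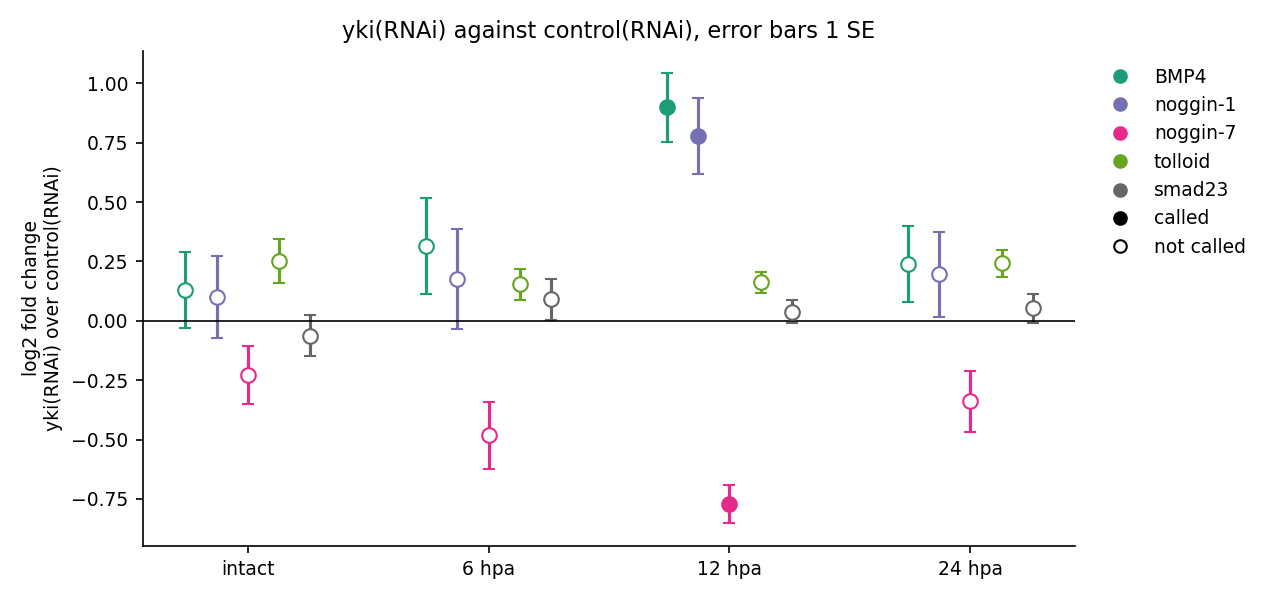
Log2 fold change of *yki(RNAi)* over *control(RNAi)* (vertical axis) for the 5 transcripts in intact animals and in tails at 6, 12 and 24 hpa, 3 libraries against 3 each, with error bars of 1 SE. Filled points were called, and these are *BMP4* (0.90), *noggin-1* (0.78) and *noggin-7* (-0.77) at 12 hpa.

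Set against intact animals of the same RNAi, the 2 RNAi conditions had different members called. In *yki(RNAi)* tails *noggin-7* was called lower than in intact animals at all 3 times. In *control(RNAi)* tails *BMP4* and *noggin-1* were called lower at 12 hpa. *noggin-7* in *yki(RNAi)* tails gave -0.53 (SE 0.14) on the log2 scale over *yki(RNAi)* intact animals at 6 hpa, -0.70 (SE 0.11) at 12 hpa and -0.43 (SE 0.12) at 24 hpa, with adjusted p = 0.0407, 0.000207 and 0.0204 from edgeR. It was the 1 called transcript of the 5 at each time. At 6 hpa 2.91% of 26856 tested transcripts were called higher in *yki(RNAi)* tails and 4.62% lower. At 12 hpa these shares were 12.1% and 10.9% of 28112, and at 24 hpa 16.5% and 15.4% of 27704. Beside these shares, 1 call among 5 transcripts does not set the members apart.

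The 12 hpa call of *noggin-7* was made without each library in turn (adjusted p from 0.000114 to 0.00219). At 6 hpa it was lost without *yki(RNAi)* tail B (adjusted p = 0.132) or C (0.0831), or without *yki(RNAi)* intact A (0.0731) or C (0.21). At 24 hpa it was lost without *yki(RNAi)* tail B (0.0772) or *yki(RNAi)* intact C (0.0974). Over the 13 alternatives of each time the adjusted p ran from 0.00109 to 0.21 at 6 hpa and from 0.00663 to 0.22 at 24 hpa. In *control(RNAi)* tails *noggin-7* differed from intact animals by -0.26 (SE 0.12), -0.18 (SE 0.09) and -0.31 (SE 0.13) on the log2 scale, none of them called (adjusted p = 0.191, 0.259 and 0.158 from edgeR), although all tail libraries lay below all intact libraries at each time.

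In *control(RNAi)* tails the log2 fold change of *BMP4* over intact animals was -0.61 (SE 0.21) at 6 hpa, -0.72 (SE 0.16) at 12 hpa and 0.06 (SE 0.18) at 24 hpa. That of *noggin-1* was -0.56 (SE 0.19), then -0.86 (SE 0.19), then -0.05 (SE 0.21). The 12 hpa values were called (adjusted p = 0.0103 and 0.0095 from edgeR) and correspond to 0.61 and 0.55 of the intact level. Without *control(RNAi)* 12 hpa replicate C, which was the lowest of its group for both, the calls were lost (adjusted p = 0.0702 and 0.0632), and DESeq2 called *noggin-1* but not *BMP4* (adjusted p = 0.0635). The adjusted p over 13 alternatives ran from 0.00505 to 0.0702 for *BMP4* and from 0.00131 to 0.0632 for *noggin-1*. In *yki(RNAi)* tails *BMP4* had values of -0.44, 0.06 and 0.16 over *yki(RNAi)* intact animals at the 3 times, and *noggin-1* of -0.50, -0.17 and 0.04 (SE between 0.14 and 0.19), none of them called. Without *yki(RNAi)* 6 hpa replicate B *noggin-1* was called at 6 hpa (-0.73, adjusted p = 0.041), and without *control(RNAi)* 6 hpa replicate B so was *BMP4* in *control(RNAi)* (-0.80, adjusted p = 0.048). Over 13 alternatives the adjusted p of these 2 ran from 0.041 to 0.443 and from 0.0169 to 0.289.

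Over the 5 transcripts, the *control(RNAi)* comparison with intact animals thus gave 2 lower calls at 12 hpa, where 6.06% of 27423 transcripts were called higher and 6.63% lower. At 6 hpa edgeR called 0, with 4 at an unadjusted p under 0.05 and 0 by DESeq2, where 4.21% of 27727 were higher and 4.49% lower. At 24 hpa edgeR called 0, with 1 at an unadjusted p under 0.05 and 0 by DESeq2, where 5.80% of 27408 were higher and 5.68% lower. Here too the percentages are of edgeR calls and give no background for the counts at an unadjusted p. *tolloid* and *smad23* were called at no time in either RNAi. Their log2 fold changes over intact animals lay between -0.07 and 0.23 for *tolloid* and between -0.09 and 0.16 for *smad23*. No member reached a 2-fold difference between tails and intact animals.

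**Figure D4:**
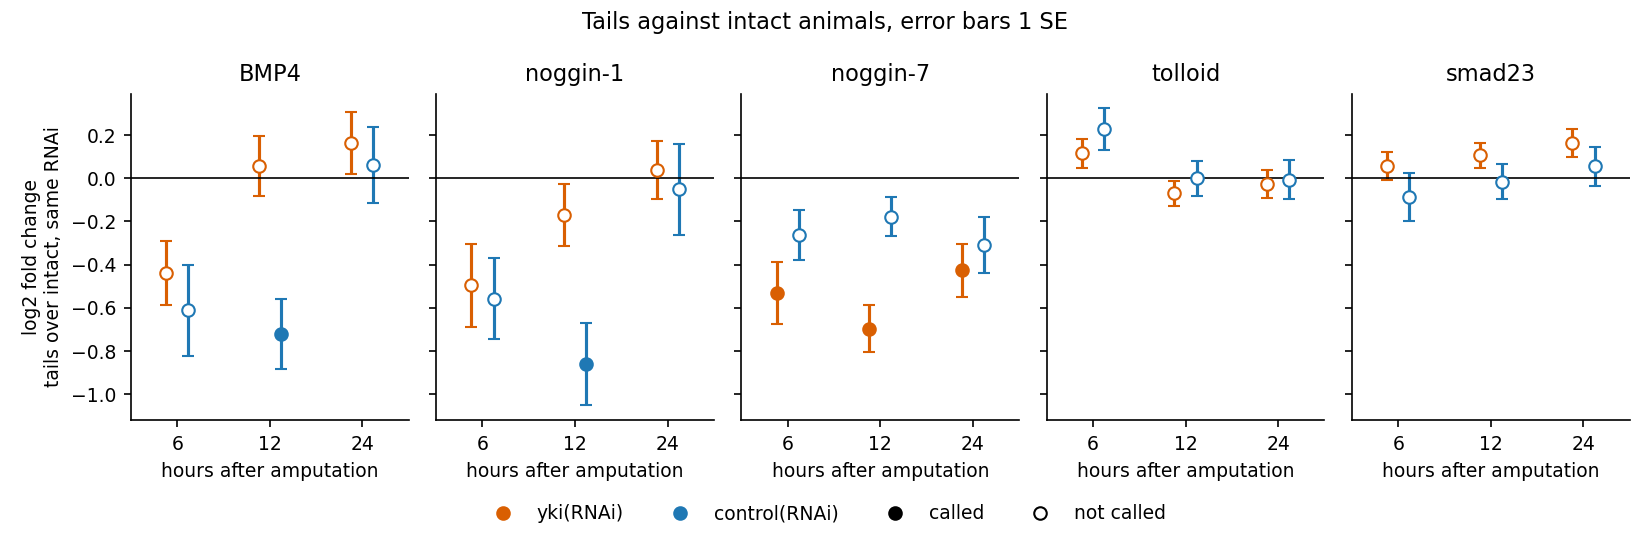
Log2 fold change of tails over intact animals of the same RNAi (vertical axis) at 6, 12 and 24 hpa, 3 libraries against 3 each, with error bars of 1 SE and filled points for calls. *noggin-7* is filled at all 3 times in *yki(RNAi)* (-0.53, -0.70 and -0.43), and *BMP4* (-0.72) and *noggin-1* (-0.86) are filled at 12 hpa in *control(RNAi)*.

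Whether the difference between tails and intact animals itself differed between *yki(RNAi)* and *control(RNAi)* was tested as an interaction on 12 libraries at each time, with no fold minimum. At 12 hpa *BMP4* (0.78 on the log2 scale, SE 0.20, adjusted p = 0.0315 from edgeR) and *noggin-7* (-0.52, SE 0.14, adjusted p = 0.0398) passed, 2 of 5 where 5.29% of 31448 transcripts did. Both genes are on the study's list of patterning genes, which was drawn up from differences in these same libraries. The interaction contains the 12 hpa difference between *yki(RNAi)* and *control(RNAi)* tails, so this count is not independent evidence. *noggin-1* had a value of 0.69 (SE 0.23) and did not pass (adjusted p = 0.0836). Both calls sit near the threshold. *BMP4* passed in 5 of 18 alternatives and *noggin-7* in 6 of 18. *BMP4* was lost without 9 of the 12 libraries in turn and *noggin-7* without 10, the adjusted p over all 18 running from 0.0192 to 0.113 and from 0.012 to 0.135, with the same sign throughout. With all 24 libraries in 1 fit, or with the first lane alone, 0 of the 5 passed. At 6 and 24 hpa edgeR passed 0 of the 5, with 0 at an unadjusted p under 0.05 and 0 by DESeq2, where 0% of 30471 and 0.00648% of 30863 transcripts passed.

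Within tails alone, *BMP4* and *noggin-1* changed with time in *control(RNAi)* (adjusted p = 0.0158 and 0.0198 from edgeR, 9 libraries). Both were level or lower at 12 hpa relative to 6 hpa, with ratios of mean level of 0.94 and 0.81. Both were then higher at 24 hpa than at 12 hpa, 1.67-fold and 1.69-fold, with no overlap between the libraries of these 2 times. In *yki(RNAi)* tails *BMP4* changed with time (adjusted p = 0.0164) and was already 1.38-fold higher at 12 hpa than at 6 hpa, without overlap. At 24 hpa it was at 1.08 times the 12 hpa level, with overlap. *noggin-1* in *yki(RNAi)* tails had ratios of 1.26 and 1.16 for the same steps (adjusted p = 0.0997), and without *yki(RNAi)* 6 hpa replicate B its adjusted p was 0.023.

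*tolloid* changed with time in both RNAi conditions (adjusted p = 0.027 in *yki(RNAi)* and 0.00987 in *control(RNAi)* from edgeR). It was highest at 6 hpa, with a ratio of 12 to 6 hpa of 0.86 in *yki(RNAi)* tails and 0.85 in *control(RNAi)* tails and no overlap in either. Of *noggin-7* and *smad23*, neither passed in *yki(RNAi)* (adjusted p = 0.272 and 0.478) or in *control(RNAi)* tails (0.551 and 0.41). In total 2 of the 5 passed in *yki(RNAi)* tails, where 25.6% of 29944 transcripts did, and 3 of 5 in *control(RNAi)* tails, where 27.1% of 29381 did. Leaving out single libraries lost the *control(RNAi)* call of *BMP4* (24 hpa A or B), of *noggin-1* (12 hpa C, 24 hpa A or B) and of *tolloid* (6 hpa A), with adjusted p from 0.0518 to 0.0922. The *control(RNAi)* call of *BMP4* was also lost with the first lane alone (adjusted p = 0.145), and over 15 alternatives its adjusted p ran from 0.00161 to 0.145. In *yki(RNAi)* tails the call of *BMP4* was lost without 6 hpa A (adjusted p = 0.0826) and by DESeq2 (0.0539). That of *tolloid* was made in 8 of 15 alternatives (adjusted p from 0.0117 to 0.111) and was lost without 6 hpa A or B or 12 hpa B or C.

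A test over all 18 tail libraries of whether the time course differed between *yki(RNAi)* and *control(RNAi)* passed 0 of the 5 transcripts in edgeR, with 1 (*BMP4*) at an unadjusted p under 0.05 and 0 by DESeq2, where 0.00617% of 32438 transcripts passed. The adjusted p was 0.419 for *BMP4*, 0.516 for *noggin-1* and 0.564 for *noggin-7*. The difference between the 12 hpa result and those at 6 and 24 hpa is therefore not shown by a test of that difference.

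Other measures also moved with the 12 hpa result. A position in time was computed over 20229 transcripts, with 0 at the mean of *control(RNAi)* tails at 6 hpa and 1 at their mean at 24 hpa. On this scale *yki(RNAi)* tails at 12 hpa lay at 0.65, 0.79 and 0.79 and *control(RNAi)* tails at 12 hpa at 0.30, 0.40 and 0.36. The *BMP4* and *noggin-1* levels of *yki(RNAi)* tails at 12 hpa overlapped with those of *control(RNAi)* tails at 24 hpa (3.62 to 4.98 and 2.96 to 4.56 CPM). The *noggin-7* levels did not, lying below every *control(RNAi)* tail of any time (10.3 to 13.4 CPM). The part of this shift in the 12 hpa differences was not tested.

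The summed level of 19 transcripts named for the epidermal lineage was 1743 to 1814 CPM in *yki(RNAi)* tails and 2298 to 2552 CPM in *control(RNAi)* tails at 12 hpa, with no overlap. That of 5 stem cell markers (*PCNA*, *bruli* and 3 *smedwi* genes), all of them present in every group after irradiation, was 464.1 to 479.7 CPM in *yki(RNAi)* tails and 442.2 to 455.3 CPM in *control(RNAi)* tails. The neuronal marker *Cintillo* was at 0 in all 18 tail libraries and the eye marker *ovo* at most 0.28 CPM, and for muscle, gut and pharynx no marker was matched by name. The paper places *cintillo* in chemoreceptive neurons and scored it in head fragments, so it does not stand for neurons in general. At 6 and 24 hpa the epidermal sum was likewise lower in *yki(RNAi)* tails (3072 to 3353 and 1359 to 1396 CPM) than in *control(RNAi)* tails (3507 to 3817 and 1549 to 1665 CPM). The intact groups overlapped, with 2488 to 3313 CPM after *yki(RNAi)* and 2227 to 2841 CPM after *control(RNAi)*. Their medians were 3087 and 2826 CPM, so the order was not that of the tails. The part of these cell types in the results was not tested.

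As a measure of tissue from other body regions served 43 transcripts that were chosen as present in *control(RNAi)* intact animals and nearly absent from *control(RNAi)* tails. Their sum was 8.14% of the *control(RNAi)* intact level in *yki(RNAi)* 6 hpa replicate B and 9.37% in *yki(RNAi)* 24 hpa replicate B, and 0.706% to 2.58% in the other 7 *yki(RNAi)* tails. *control(RNAi)* tails took part in the choice of these transcripts, so their values are not independent of it. With each of them left out of its own choice they had 1.47% to 12.0%, and the highest, 6 hpa replicate C, lay above both *yki(RNAi)* replicates B. *noggin-7* was the lowest of its group in both these replicates B and the highest of its group in *control(RNAi)* 6 hpa replicate C. Without the replicates B its log2 fold change was -0.37 at 6 hpa and -0.27 at 24 hpa, in place of -0.48 and -0.34, and without *control(RNAi)* 6 hpa replicate C it was -0.43 at 6 hpa. The 12 hpa comparison holds none of these libraries, and its 6 libraries lay between 0.767% and 2.58%.

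The list of other BMP and activin pathway genes held 5. Found by name were *activin*, a ligand of the SMAD2/3 branch, *follistatin*, which binds and blocks activin, *activin-receptor-1*, and *nlg4* of the noggin-like family. SmedASXL_008908, which the study calls noggin-like protein 1, has no name in the count table. It was added by its identifier, with earlier results of these data known. *nlg4* had 0 to 5 counts in a library and was not tested. Between *yki(RNAi)* and *control(RNAi)*, *activin* (SmedASXL_019422) was the 1 called of the 4 tested at 6 hpa and at 12 hpa, lower both times. Of all transcripts tested, 2.47% were called higher and 3.49% lower at 6 hpa, and 10.9% and 11.2% at 12 hpa. At 12 hpa *follistatin* (-0.23) and noggin-like protein 1 (-0.26) also had an adjusted p under 0.05, with differences under the fold minimum. *activin* had 37.1, 32.9 and 33.5 CPM in *yki(RNAi)* tails and 43.2, 43.5 and 44.1 CPM in *control(RNAi)* tails at 6 hpa (edgeR gave -0.31 on the log2 scale, SE 0.07, adjusted p = 0.0232). At 12 hpa it had 30.8, 31.2 and 28.3 CPM in *yki(RNAi)* tails and 45.8, 37.4 and 43.0 CPM in *control(RNAi)* tails (-0.47, SE 0.07, adjusted p = 4e-05). Groups did not overlap at either time. The 12 hpa call of *activin* was made in 13 of 13 alternatives. That at 6 hpa was made in 5 of 13, with adjusted p from 0.0118 to 0.122, and was lost without *yki(RNAi)* replicate B or C or *control(RNAi)* replicate A or B.

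In intact animals and at 24 hpa edgeR called 0 of these 4 between *yki(RNAi)* and *control(RNAi)*, with 2 at an unadjusted p under 0.05 at each, and DESeq2 called 0 in intact animals and 1 at 24 hpa. Of all transcripts tested, edgeR called 1.68% higher and 1.98% lower in intact animals, and 1.53% and 2.53% at 24 hpa. Against intact animals, edgeR called *noggin-like protein 1* higher in tails at every time in both RNAi conditions, least firmly in *yki(RNAi)* tails at 24 hpa. It was 2.40, 1.87 and 1.32 times the intact level in *yki(RNAi)* tails at the 3 times, and 3.14, 3.34 and 2.30 times in *control(RNAi)* tails (SE between 0.12 and 0.18 on the log2 scale). The call in *yki(RNAi)* tails at 24 hpa (adjusted p = 0.0439) was not made by DESeq2 (0.123) or with the first lane alone (0.154). It was also lost without each of the 3 *yki(RNAi)* 24 hpa tails in turn and without *yki(RNAi)* intact A or B, and its adjusted p over 13 alternatives ran from 0.0177 to 0.154. *yki(RNAi)* intact animals themselves had 5.31 to 8.25 CPM of it, and *control(RNAi)* intact animals 3.52 to 5.35 CPM. *follistatin* was called higher than in intact animals at 6 hpa in *yki(RNAi)* tails (0.43, SE 0.10) and at 6 and 12 hpa in *control(RNAi)* tails (0.60 and 0.48, SE 0.10 each). *activin* was called lower at 6 and 12 hpa in *yki(RNAi)* tails (-0.33, SE 0.08, and -0.50, SE 0.07). In *control(RNAi)* tails it had -0.30 and -0.34 at these times (SE 0.13 each). Neither was called (adjusted p = 0.17 and 0.109 from edgeR). Its interaction was -0.03 at 6 hpa and -0.17 at 12 hpa, and neither passed (adjusted p = 0.964 and 0.598 from edgeR). At 6 hpa in *yki(RNAi)* tails, the call of *activin* was made in 7 of 13 alternatives (adjusted p from 0.00743 to 0.155), being lost without tail B or C or intact B or C. That of *follistatin* was made in 10 of 13 (0.00109 to 0.0975), being lost without tail B or intact B. Both calls were also lost under the 2-fold minimum. *activin-receptor-1* was called in none of these 10 comparisons. In the 12 hpa interaction 1 of these 4, *noggin-like protein 1*, passed (-0.83, SE 0.20, adjusted p = 0.0246), where 5.29% of all 31448 transcripts did. It passed in 11 of 18 alternatives (adjusted p from 0.000212 to 0.0838).

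The named transcripts most like each of the 5 over the 24 libraries were picked by Pearson correlation of log2 levels among the 128 other named rows with at least 1 CPM on average, or 127 for *smad23*. For *BMP4* they were *usf* (0.83), *COE* (0.69) and *smoothened* (0.68), and for *noggin-1* *meis* (0.66), *COE* (0.65) and *usf* (0.65). Both were less like these than like each other. For *noggin-7* the leading one was *activin* (0.82), followed by *wnt2-1* and a row known only by identifiers, SmedASXL_006125 (0.73 each). For *tolloid* they were *gli-1* (0.81), *porcnA* (0.76) and *prog1g* (0.72), and for *smad23*, which varied little, *porcn-B* (0.56), *wntP-2* (0.53) and *activin-receptor-1* (0.49). These correlations run over groups and share library, depth and time with the values described above.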

How the data were processed

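Irradiated planarians were profiled as 24 libraries in 8 groups of 3. The authors called bases with bcl2fastq 1.8.3, trimmed 15 bases from the 3' end of single-end reads and mapped them to SmedASXL transcripts using Bowtie2 2.2.4. They deposited unnormalised counts, with a column for each of 2 lanes of a library. The counting tool is not given in the sources used here, so reads shared by related transcripts, such as noggin family members, may be split in unknown ways. The 6 deposited DESeq2 tables hold fold changes and p-values of the authors' own comparisons. They were not used for any result and served only to tie 4 gene names to identifiers. The row of counts that names no transcript (6.31% to 7.49% of a library) was left out. Lanes were summed after a check against each other (chi-square per degree of freedom 0.98 to 1.02), except in *yki(RNAi)* intact replicate A, whose second lane has 22 damaged rows and was not used. Lanes of 1 library are not separate replicates.

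Each comparison was fitted on its own groups in edgeR 4.0.16 (R 4.3.3) with TMM factors, filterByExpr (minimum count 10, minimum total 15) and the quasi-likelihood test, adjusted by Benjamini-Hochberg over all transcripts tested. The script was tested on simulated data. All 5 members passed the filter in all 16 comparisons. SE was taken as the size of a log2 difference divided by the root of its F statistic. For the time tests, ratios are from mean log2 CPM (prior count 2). The fold minimum of 1.2 or 0.83 is that of the study for patterning genes. Alternatives were DESeq2 size factors, the DESeq2 1.42.0 test, 1 fit to all 24 libraries, the first lane only, no low-count filter, a replicate block, each library left out in turn, and a fold minimum of 2 (tails against intact) or 1.25 (*yki(RNAi)* against *control(RNAi)*). Libraries were not treated as paired by replicate letter, since in none of the 10 comparisons of 2 groups did all 3 same-letter pairs correlate above 0.1. This rule does not exclude a pairing of some letters. Transcripts of other body regions have at least 5 CPM in *control(RNAi)* intact animals and under 5% of that on average in *control(RNAi)* tails. Named are the 5 members, *yki*, for each member the 3 most correlated named transcripts, and pathway genes. The pathway genes were matched by name, except SmedASXL_008908, which was added by its identifier. The members, lists and rules were chosen with earlier results of these data known.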

Additional observations from a re-analysis of the deposited data

Results flagged for a closer look

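For 3 of the transcripts described, the interaction term of edgeR on 12 libraries passed at 12 hpa, for a difference between tails and intact animals that differed between *yki(RNAi)* and *control(RNAi)*, and none of the 3 passed in all alternatives. Of all 31448 transcripts tested, 5.29% passed. *BMP4* and *noggin-7* are on the study's list, drawn up from differences in these same libraries. SmedASXL_008908 (*noggin-like protein 1*) was added to the pathway list with earlier results of these data known. These passes are therefore not independent evidence. The interaction was 0.78 on the log2 scale for *BMP4* (adjusted p = 0.0315), -0.52 for *noggin-7* (0.0398) and -0.83 for *noggin-like protein 1* (0.0246). *BMP4* passed in 5 of 18 alternatives (adjusted p from 0.0192 to 0.113), *noggin-7* in 6 of 18 (0.012 to 0.135) and *noggin-like protein 1* in 11 of 18 (0.000212 to 0.0838). With the first lane alone none of the 3 passed, and with all 24 libraries in 1 fit only *noggin-like protein 1* did (0.0281). *BMP4* was lower in *control(RNAi)* tails (-0.72 over intact animals) and had 0.06 in *yki(RNAi)* tails, and *noggin-7* had -0.70 in *yki(RNAi)* and -0.18 in *control(RNAi)* tails. *noggin-like protein 1* exceeded intact animals by less in *yki(RNAi)* (0.90) than in *control(RNAi)* tails (1.74). Groups of 3 are too small for a test of single outlying libraries.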

How the results depend on the processing

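The 3 calls between *yki(RNAi)* and *control(RNAi)* tails at 12 hpa (*BMP4*, *noggin-1*, *noggin-7*) were made in all 13 alternatives. The other counts of members called moved as follows, each out of 5. Between *yki(RNAi)* and *control(RNAi)* tails at 6 hpa the count was 1 without the filter on low counts, 1 with all 24 libraries in 1 fit and 1 by DESeq2, in place of 0. Against intact animals, a 2-fold minimum left 0 of the calls at each time in *yki(RNAi)* and at 12 hpa in *control(RNAi)*, where DESeq2 left 1 of 2. All 24 libraries in 1 fit gave 1 in *control(RNAi)* tails at 6 hpa. The first lane alone, with less depth, gave 0 in *yki(RNAi)* tails at 6 and 24 hpa, in place of 1 each. The 12 hpa interaction went to 1 without the filter, 0 with all 24 libraries, 0 with the first lane and 1 by DESeq2, in place of 2. The time test in *yki(RNAi)* tails went to 1 in each of these 4 settings, in place of 2, and that in *control(RNAi)* tails to 2 with the first lane, in place of 3. The cause of these shifts was not tested.

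Leaving out 1 library at a time gave 0 to 1 calls between *yki(RNAi)* and *control(RNAi)* in intact animals and at 6 hpa. It gave 0 to 1 in *control(RNAi)* tails at 6 hpa and 0 to 2 at 12 hpa against intact animals, 0 to 1 in *yki(RNAi)* tails at 6 and 24 hpa, 0 to 3 in the 12 hpa interaction, 1 to 3 for time in *control(RNAi)* and 0 to 2 for time in *yki(RNAi)* tails. The replicate block changed none of the 16 counts of members called. Correlations between same-letter libraries ran from -0.087 to 0.188, which does not exclude a pairing of some letters.

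Signs turned only in uncalled values near 0, given here as log2 differences. With the first lane alone, between *yki(RNAi)* and *control(RNAi)*, they were -0.082 for *BMP4* in intact animals, -0.010 for *noggin-1* at 6 hpa and, at 24 hpa, -0.023 for *noggin-1* and -0.0063 for *smad23*. Against intact animals at 24 hpa they were -0.099 for *BMP4* and 0.069 for *noggin-1* in *control(RNAi)*, and -0.042 for *noggin-1* and 0.016 for *tolloid* in *yki(RNAi)* tails. In the interaction *noggin-1* had -0.085 at 6 hpa and -0.11 at 24 hpa, *noggin-7* 0.0016 and *tolloid* 0.026 at 24 hpa. In *control(RNAi)* tails at 12 hpa *tolloid* had 0.015 with DESeq2 size factors, 0.049 without the filter, 0.022 with all 24 libraries, 0.0053 with the replicate block, 0.012 with the first lane and 0.042 by DESeq2. *smad23* there had 7.22e-06 with DESeq2 size factors, 0.035 without the filter, 0.0055 with all 24 libraries and 0.029 by DESeq2, and *tolloid* at 24 hpa had 0.033 without the filter and 0.0075 by DESeq2.

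With 1 library left out, the ranges that cross 0 were, between *yki(RNAi)* and *control(RNAi)* at 6 hpa, -0.066 to 0.36 for *noggin-1* and -0.0031 to 0.17 for *smad23*. In *control(RNAi)* tails against intact animals they were -0.16 to 0.014 for *smad23* at 6 hpa, -0.040 to 0.096 for *tolloid* and -0.078 to 0.033 for *smad23* at 12 hpa and, at 24 hpa, -0.052 to 0.17 for *BMP4*, -0.15 to 0.13 for *noggin-1*, -0.060 to 0.077 for *tolloid* and -0.017 to 0.091 for *smad23*. In *yki(RNAi)* tails they were -0.031 to 0.11 for *BMP4* at 12 hpa and, at 24 hpa, -0.043 to 0.084 for *noggin-1* and -0.065 to 0.0050 for *tolloid*. In the interaction they were -0.17 to 0.23 for *noggin-1* at 6 hpa and, at 24 hpa, -0.0026 to 0.21 for *BMP4*, -0.085 to 0.20 for *noggin-1*, -0.23 to 0.0085 for *noggin-7* and -0.12 to 0.030 for *tolloid*.

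Over all transcripts, the number called moved by over 1.5 times as follows. Between *yki(RNAi)* and *control(RNAi)* it was 935 in intact animals, against 2049 with all 24 libraries, 1741 without the filter and 1873 with the block, and 1121 at 24 hpa, against 1759 with all 24 libraries. In *control(RNAi)* tails against intact animals it was 2411 at 6 hpa, against 5204 with all 24 libraries and 3648 without the filter, and 3148 at 24 hpa, against 5246 with all 24 libraries. In the interaction it was 0 at 6 hpa, against 345 without the filter, 34 by DESeq2, 3 with all 24 libraries and 1 with the block, 1664 at 12 hpa, against 2614 without the filter and 1109 with the first lane, and 2 at 24 hpa, against 146 without the filter, 130 by DESeq2, 25 with all 24 libraries and 0 with the first lane. For RNAi by time it was 2, against 124 without the filter, 69 by DESeq2, 4 with the block, 1 with the first lane and 0 with all 24 libraries, and for time in *yki(RNAi)* tails 7655, against 5069 with the first lane. A 2-fold minimum against intact animals left 751 of 2022, 1737 of 6467 and 2672 of 8852 at 6, 12 and 24 hpa in *yki(RNAi)* and 882 of 2411, 1122 of 3480 and 1177 of 3148 in *control(RNAi)* tails. *BMP4* had 40 to 126 counts in a library, and whether depth limits its calls at 6 and 24 hpa was not tested.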
